A study of Mus musculus with 8 samples.

Results

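The genes described here encode the proteins that bring calcium into the cytosol, release it from internal stores and pump it out again. They were taken from the mouse gene symbols as all protein-coding genes for voltage-gated calcium channel subunits (*Cacna*, *Cacnb* and *Cacng*), TRPC, TRPV and TRPM channels, Piezo channels, Orai and Stim proteins, inositol trisphosphate (IP3) and ryanodine receptors, calcium pumps (*Atp2a*, *Atp2b* and *Atp2c*), sodium-calcium exchangers (*Slc8a*) and phospholamban (*Pln*). This gave 73 genes of the 54532 listed in the count tables. They were measured by bulk RNA-seq in 8 primary cultures of wild-type mouse brain pericytes. Of these, 4 had received TGF-β1 at 5 μg/mL and 4 had received vehicle, each for 48 h. The cells had been isolated with papain, expanded in serum-containing medium over several passages and plated for a day before treatment. The labels do not say which isolate or animal each culture came from, although the study's methods describe 4 isolates given vehicle and TGF-β1. The groups were therefore compared as unpaired, and the p-values measure the spread between these cultures.

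Cytosolic calcium sets the tone of mural cells, because calcium bound to calmodulin activates myosin light chain kinase and thereby contraction. Calcium enters through voltage-gated channels when the membrane depolarises, through TRP and Piezo channels in response to lipids, temperature or stretch, and through Orai channels when Stim proteins sense that the endoplasmic reticulum is empty. IP3 and ryanodine receptors release calcium from the reticulum, the SERCA pumps (*Atp2a*) return it there, and plasma membrane pumps (*Atp2b*) and sodium-calcium exchangers remove it from the cell.

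Of the 73 genes, 59 passed edgeR's filter on low counts, and 29 of these (49.2%) had an adjusted p under 0.05 in its quasi-likelihood test. Of all 22544 genes tested, 41.3% were called. The calls were split between the directions, with 15 members higher with TGF-β1 (20.9% of all genes tested were called higher) and 14 lower (20.3% of all genes tested were called lower). The median log2 fold change was -0.02 over the 59 members and -0.01 over all genes tested. Most called members changed little, with a log2 fold change under 0.5 in size in 20 of the 29. A change beyond 1 on the log2 scale with an adjusted p under 0.05 was seen in 6 members, *Piezo2*, *Cacnb4*, *Ryr3*, *Cacna1h*, *Trpv3* and *Slc8a3*, and in 5.41% of all genes tested. Levels are given as CPM, a count divided by the TMM-normalised size of its library. In 29 of the 59 members, and in 37.9% of all genes tested, the TGF-β1 cultures lay wholly above or wholly below the vehicle cultures. Because the RNA came from whole cultures, fewer cells of a type and less RNA per cell cannot be told apart.

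**Figure D1:**
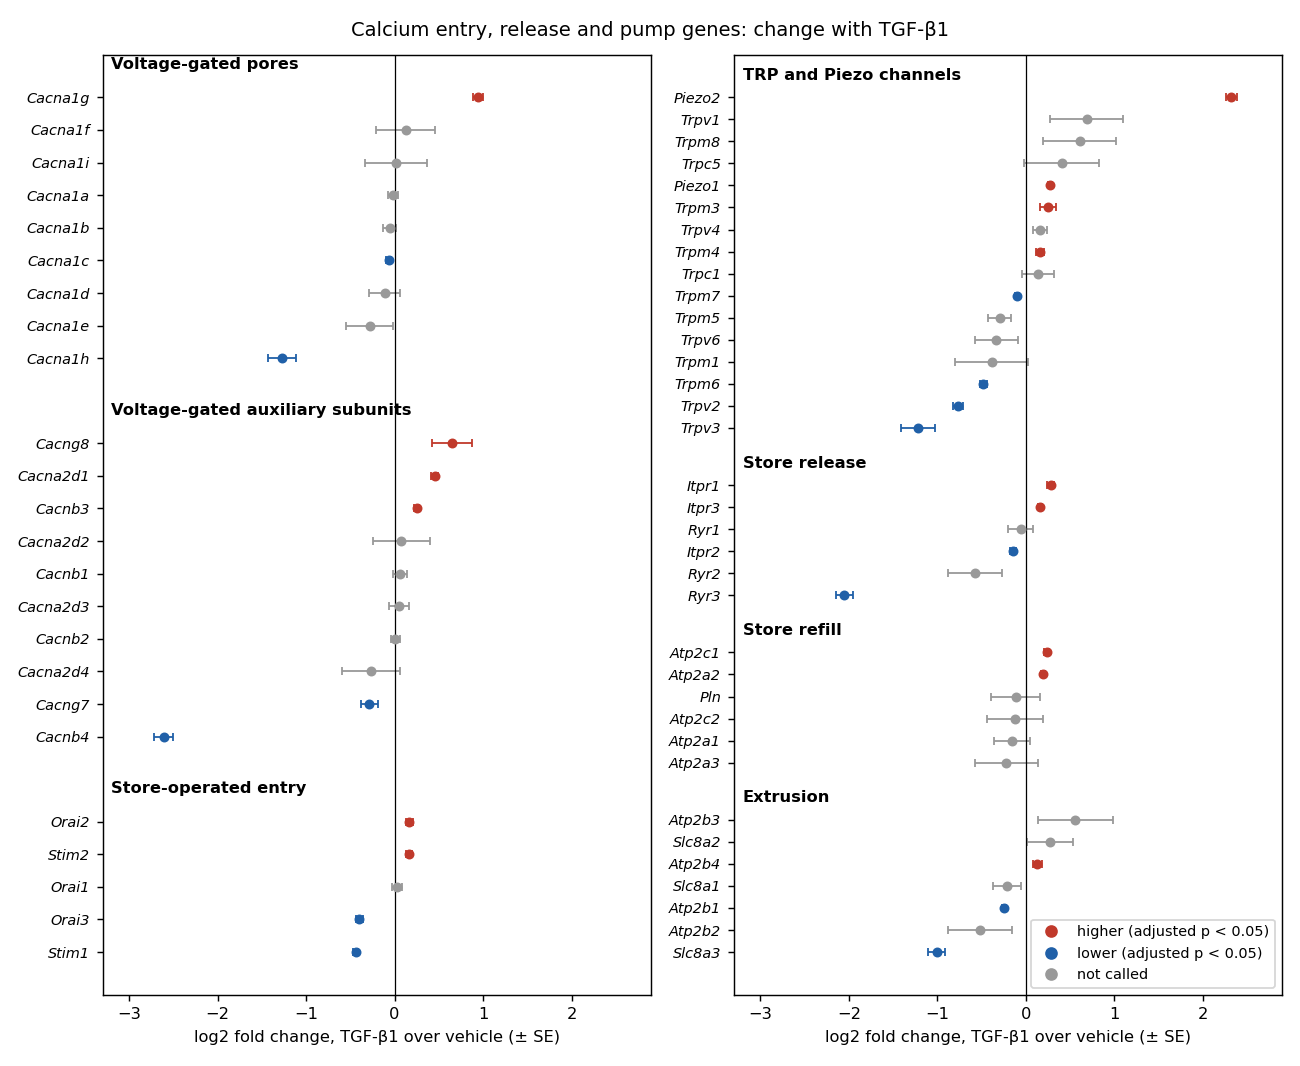
Log2 fold change of each of the 59 members tested, TGF-β1 over vehicle (x axis), grouped by role, with bars for the standard error (n = 4 cultures per group). Red points were higher and blue points lower with an adjusted p under 0.05, and *Piezo2* at 2.32 and *Cacnb4* at -2.61 lie farthest from 0.

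Whether a member was called went with its level. All 7 members with a mean of 100 CPM or more were called, as were 73.0% of all genes at that level. Between 10 and 100 CPM, 14 of 17 members were called, against 56.6% of all genes, and between 1 and 10 CPM, 7 of 17, against 35.3%. Below 1 CPM, 1 of 18 members was called (*Cacng8*), against 14.4% of all genes. The 7 abundant members (*Itpr3*, *Atp2a2*, *Piezo1*, *Trpm7*, *Atp2b1*, *Cacna1c* and *Cacnb3*) had log2 fold changes between -0.24 and 0.27, while 5 of the 6 largest changes were in genes with a mean of less than 10 CPM. The remaining large change, in *Piezo2*, was at an intermediate level.

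**Figure D2:**
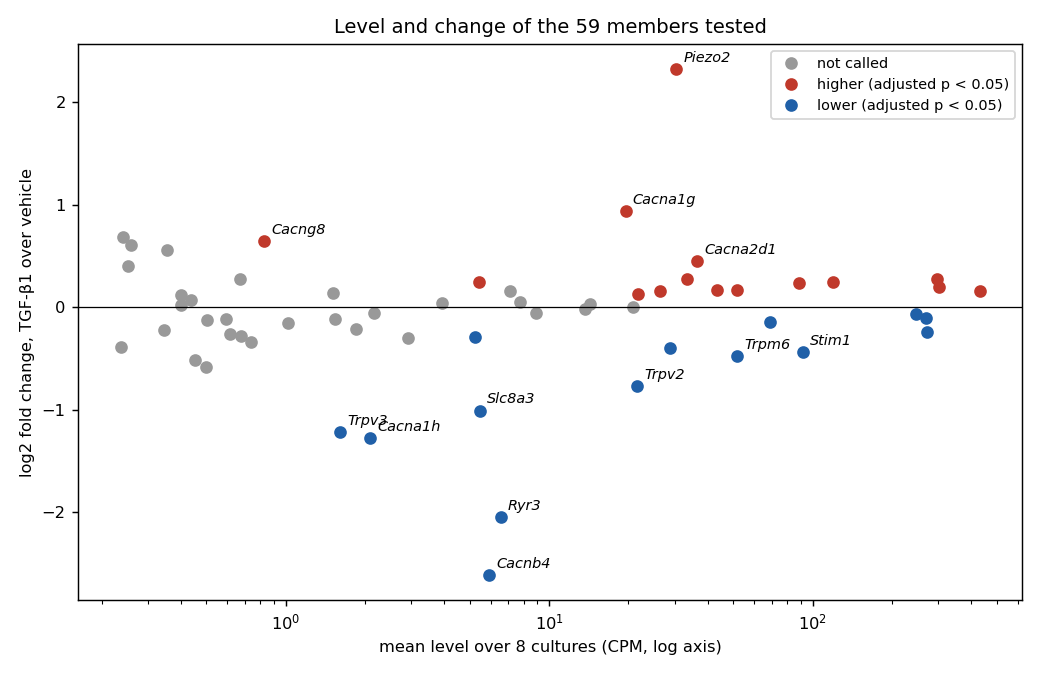
Mean level over the 8 cultures (x axis, CPM, log scale) against the log2 fold change with TGF-β1 (y axis) for the 59 members tested, each point a gene and coloured as higher, lower or not called. The largest falls lie at low levels and the 7 members at or above 100 CPM lie close to 0.

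Of the 10 pore-forming subunits of voltage-gated channels, 9 were tested, 1 was higher and 2 were lower, beside 41.3% of all genes called. The pores of the T type, which open at small depolarisations, moved in opposite directions. *Cacna1g* (ENSMUSG00000020866, chromosome 11, 94408391 to 94474198 of GRCm38), which encodes the T-type pore Cav3.1, was at 13.2, 14.3, 13.5 and 12.4 CPM in the vehicle cultures and at 27.0, 25.8, 26.9 and 22.9 CPM in the TGF-β1 cultures. Every TGF-β1 culture lay well above every vehicle culture. The means were 13.4 ± 0.791 and 25.7 ± 1.90 CPM (SD, n = 4 each), a log2 fold change of 0.94 (SE 0.06, edgeR adjusted p = 2.33e-18). *Cacna1h* (ENSMUSG00000024112, chromosome 17, 25374285 to 25433783), which encodes the T-type pore Cav3.2, was at 4.01, 2.59, 2.57 and 2.69 CPM with vehicle and at 1.37, 1.24, 1.22 and 1.06 CPM with TGF-β1. The groups did not overlap, and vehicle replicate 1 stood above the other vehicle cultures. The fall was 1.27 on the log2 scale (SE 0.16, edgeR adjusted p = 9.08e-09), and over all alternatives its log2 fold change ranged from -1.34 to -1.09.

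*Cacna1c*, the L-type pore Cav1.2 through which smooth muscle takes up calcium for contraction, was by far the most abundant pore per length of exon. It was at 257, 260, 244 and 253 CPM with vehicle and at 244, 238, 244 and 241 CPM with TGF-β1, and 1 TGF-β1 culture (replicate 5) lay just above the lowest vehicle culture. Its log2 fold change was -0.07 (SE 0.02, edgeR adjusted p = 0.0195). This call was lost when TGF-β1 replicate 6 or 8 or vehicle replicate 1 or 2 was left out (adjusted p = 0.0574 to 0.102), which leaves *Cacna1h* as the only lower pore in those fits. The pores of neuronal P/Q and N type channels, *Cacna1a* (13.8 ± 0.816 and 13.6 ± 0.642 CPM, SD, n = 4 each) and *Cacna1b* (9.11 ± 0.758 and 8.76 ± 0.787 CPM), were not called, with 95% intervals of the log2 fold change from -0.14 to 0.11 and from -0.21 to 0.10. *Cacna1d*, another L-type pore, was not called either (interval -0.46 to 0.24). *Cacna1e*, *Cacna1f* and *Cacna1i* were below 1 CPM and not called, and *Cacna1s*, the pore of skeletal muscle, had at most 12 counts in a culture and was not tested.

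Auxiliary subunits bring the pores to the membrane and tune their gating. Of the 16 auxiliary genes, 10 were tested, 3 were higher and 2 were lower, beside 41.3% of all genes called. The largest change of any member was the fall of *Cacnb4* (ENSMUSG00000017412, chromosome 2, 52428320 to 52676831), which encodes a cytosolic β subunit best known from the brain. It was at 10.3, 10.4, 10.1 and 9.92 CPM with vehicle and at 1.59, 1.44, 2.03 and 1.62 CPM with TGF-β1. The cultures of a group lay close together and the groups far apart, with a log2 fold change of -2.61 (SE 0.10, edgeR adjusted p = 1.22e-24) or 6.10-fold lower. Its exons overlap those of *A430018G15Rik*, on the other strand, over part of their length (15.99% of its bases), and that gene had 5 to 14 counts per culture.

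The other β subunits did not follow *Cacnb4*. *Cacnb3*, the most abundant auxiliary subunit per length, was at 110, 107, 106 and 114 CPM with vehicle and at 132, 131, 129 and 128 CPM with TGF-β1, a rise of 0.25 on the log2 scale (SE 0.03, edgeR adjusted p = 1.39e-10). *Cacnb1* and *Cacnb2* were not called, with 95% intervals of the log2 fold change from -0.10 to 0.21 and from -0.10 to 0.11. As a share of the β subunit family per kb of exon, *Cacnb4* went from between 3.40% and 3.70% of the family in the vehicle cultures to between 0.444% and 0.634% in the TGF-β1 cultures, and *Cacnb3* from between 85.6% and 87.0% to between 89.8% and 90.4%. The summed level of the family was higher with TGF-β1, at 35.3 to 36.3 against 30.7 to 32.6 CPM per kb.

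*Cacna2d1* (ENSMUSG00000040118, chromosome 5, 15934691 to 16374511), the extracellular α2δ subunit that binds gabapentin, was at 30.5, 31.1, 31.7 and 29.5 CPM with vehicle. With TGF-β1 it was at 42.6, 42.4, 41.7 and 41.3 CPM, above every vehicle culture. The rise was 0.45 on the log2 scale (SE 0.04, edgeR adjusted p = 1.92e-13). Its relative *Cacna2d3* was not called (95% interval of the log2 fold change -0.18 to 0.27), and *Cacna2d2* and *Cacna2d4* were below 1 CPM and not called.

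Among the 8 γ subunit genes, 2 were tested and both were called in opposite directions. *Cacng8*, which in neurons accompanies AMPA receptors, was at 0.542, 0.658, 0.737 and 0.628 CPM with vehicle and at 1.09, 0.915, 1.22 and 0.809 CPM with TGF-β1. At 25 to 56 counts per culture its rise of 0.65 on the log2 scale (SE 0.23, edgeR adjusted p = 0.0202) was lost without TGF-β1 replicate 5 (adjusted p = 0.0520), TGF-β1 replicate 7 (0.0894) or vehicle replicate 1 (0.0597). *Cacng7*, the other γ subunit gene tested, had a log2 fold change of -0.28 (SE 0.10, edgeR adjusted p = 0.0174). Its call was lost without TGF-β1 replicate 8 (adjusted p = 0.0551) or vehicle replicate 1 (0.142). The other γ subunit genes had at most 9 counts in a culture, and *Cacng6* had none in any, which allows up to 0.0631 to 0.0658 CPM per culture (3 counts, counting error only). Low counts were mostly even numbers, and if a fragment gave more than 1 count this limit would be higher.

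**Figure D3:**
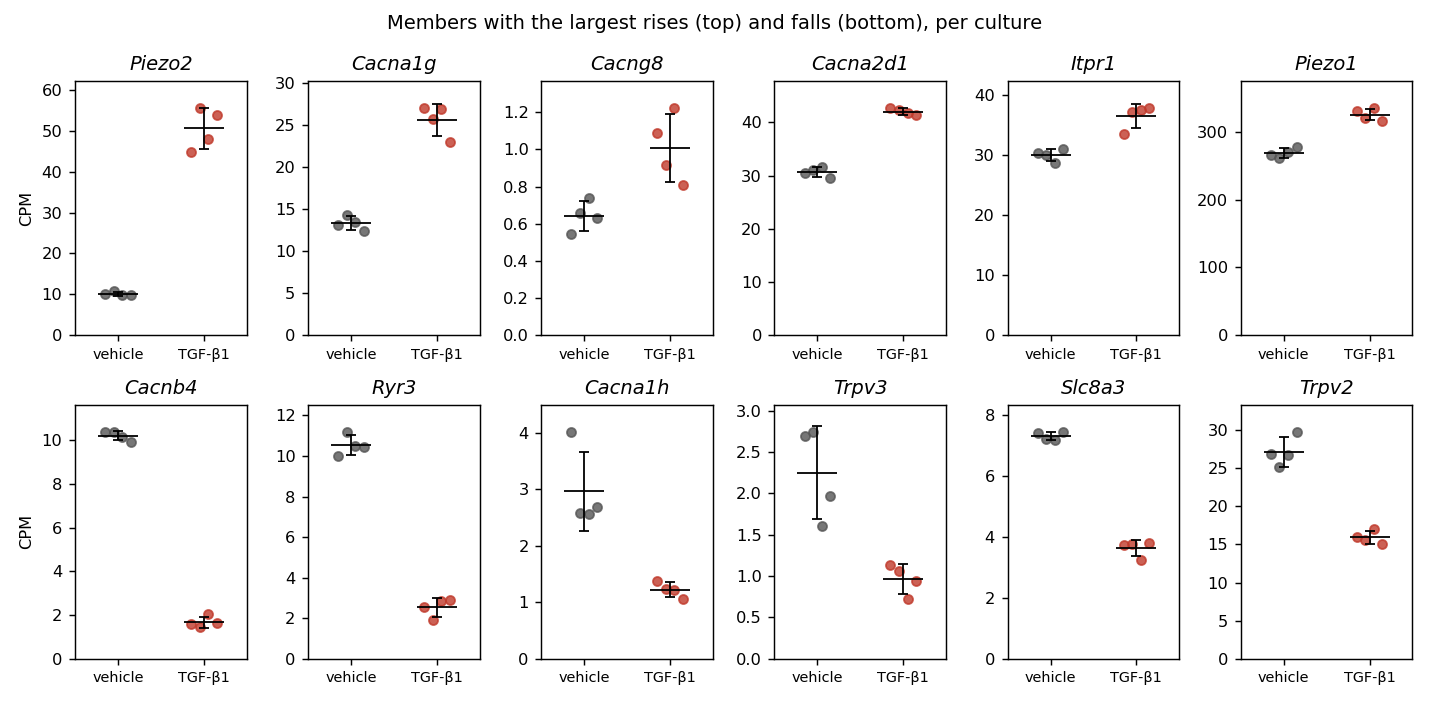
CPM in each of the 8 cultures (points, y axes from 0) for the 6 called members with the largest rises (top row) and the 6 with the largest falls (bottom row), with the mean and SD of each group (n = 4). In all 12 genes the TGF-β1 cultures lie on the same side of all vehicle cultures.

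Of the 23 TRP and Piezo channels, 16 were tested, 4 were higher and 4 were lower, beside 41.3% of all genes called. Piezo channels are cation channels opened by stretch of the membrane. *Piezo2* (ENSMUSG00000041482, chromosome 18, 63010213 to 63387183), known as the touch receptor of sensory neurons, was at 9.96, 10.9, 9.83 and 9.75 CPM with vehicle and at 44.9, 55.5, 48.1 and 53.9 CPM with TGF-β1. This was the largest rise of any member, from 10.1 ± 0.524 to 50.6 ± 4.96 CPM (SD, n = 4 each), or 5.01-fold (log2 fold change 2.32, SE 0.06, edgeR adjusted p = 4.93e-22). *Piezo1* (ENSMUSG00000014444, chromosome 8, 122481698 to 122551329), the widely expressed Piezo channel of vessels, was much more abundant. It was at 266, 261, 271 and 278 CPM with vehicle and at 330, 320, 335 and 316 CPM with TGF-β1, a rise of 0.27 on the log2 scale (SE 0.02, edgeR adjusted p = 5.31e-13). Per kb of exon, *Piezo2* made up 1.99% to 2.35% of the Piezo level in the vehicle cultures and 7.30% to 9.12% in the TGF-β1 cultures, so *Piezo1* remained the main Piezo transcript in all 8. Exons of *Ctu2*, on the other strand, overlap 24.6% of the exon length of *Piezo1*, and *Ctu2* was at 12.5 CPM with vehicle and 13.4 CPM with TGF-β1.

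The TRPV channels that were called fell. *Trpv2* (ENSMUSG00000018507, chromosome 11, 62574486 to 62600515), a channel reported to respond to stretch and swelling, was at 26.9, 25.1, 26.7 and 29.8 CPM with vehicle and at 16, 15.6, 17.0 and 15.1 CPM with TGF-β1. The groups were clearly apart, with a log2 fold change of -0.77 (SE 0.05, edgeR adjusted p = 2.96e-16). *Trpv3* (ENSMUSG00000043029, chromosome 11, 73267388 to 73300363), a warmth-activated channel best known from skin, was at 2.69, 2.74, 1.60 and 1.97 CPM with vehicle and at 1.13, 1.07, 0.720 and 0.936 CPM with TGF-β1. Its vehicle cultures were spread, and all 4 were above the TGF-β1 cultures (log2 fold change -1.22, SE 0.19, edgeR adjusted p = 6.19e-07). *Trpv4*, an osmotically and mechanically gated channel of vessels, was at 6.71 ± 0.381 and 7.50 ± 0.618 CPM (SD, n = 4 each) and was not called (log2 fold change 0.16, 95% interval -0.01 to 0.33, edgeR adjusted p = 0.126). Without TGF-β1 replicate 6 its adjusted p was 0.0482. *Trpv1*, the capsaicin receptor, and *Trpv6*, an epithelial calcium channel, were below 1 CPM and not called, and *Trpv5*, its close relative, had at most 11 counts in a culture and was not tested.

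In the TRPM family, *Trpm7*, a magnesium and calcium channel fused to a kinase, was the most abundant member. It went from 280 ± 3.65 to 261 ± 4.88 CPM (SD, n = 4 each), a log2 fold change of -0.10 (SE 0.02, edgeR adjusted p = 0.000343). Its close relative *Trpm6*, the magnesium channel of kidney and gut, went from 60.0 ± 3.05 to 43.1 ± 1.34 CPM (SD, n = 4 each), a fall of 0.48 (SE 0.04, edgeR adjusted p = 5.94e-15). *Trpm4*, which calcium opens and which carries sodium rather than calcium, rose by 0.16 (SE 0.05, edgeR adjusted p = 0.00399). *Trpm3*, activated by steroids and heat, had a log2 fold change of 0.25 (SE 0.09, edgeR adjusted p = 0.0272). The *Trpm3* call was lost without TGF-β1 replicate 6 (adjusted p = 0.0518), TGF-β1 replicate 7 (0.0921), vehicle replicate 1 (0.0665) or vehicle replicate 3 (0.0668). *Trpm5*, the calcium-gated channel of taste cells, was not called (log2 fold change -0.30, 95% interval -0.56 to -0.03, edgeR adjusted p = 0.0721). Without vehicle replicate 2 its adjusted p was 0.0274. Exons of *Tssc4*, on the other strand, overlap 3.44% of its exon length, and *Tssc4* fell from 49.2 to 39.7 CPM (log2 fold change -0.31). Whether *Tssc4* reads enter the *Trpm5* counts was not tested. *Trpm1* and *Trpm8*, the cold receptor, were below 1 CPM and not called, and *Trpm2* had at most 11 counts in a culture and was not tested.

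TRPC channels, the receptor-operated channels often studied in smooth muscle, were scarce in these cultures. Among them *Trpc1* and *Trpc5* were tested. *Trpc1*, at 55 to 91 counts per culture, was not called (95% interval of the log2 fold change -0.23 to 0.51). *Trpc5* had at most 16 counts in a culture and was not called. *Trpc6*, which is linked to mural cell tone, *Trpc4* and *Trpc7* had at most 10 counts in a culture, and a difference in them was not detectable at this depth. *Trpc2* had no counts, but its annotated exons lie wholly within those of *Xndc1* and *Xntrpc*, so its level is uncertain.

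All 5 genes of store-operated entry were tested, and 2 were higher and 2 lower, beside 41.3% of all genes called. All 5 had a mean between 10 and 100 CPM, a level at which 56.6% of all genes were called. *Stim1*, the main sensor of store depletion, was at 108, 105, 103 and 106 CPM with vehicle and at 77.3, 77.4, 78.8 and 77.7 CPM with TGF-β1. The fall was 0.44 on the log2 scale (SE 0.03, edgeR adjusted p = 1.17e-17). *Stim2*, the sensor tuned to small losses of store calcium, moved the other way, from 48.5 ± 2.04 to 54.4 ± 2.32 CPM (SD, n = 4 each), a rise of 0.17 (SE 0.04, edgeR adjusted p = 0.000218). Per kb of exon, *Stim1* made up 50.8% to 53.0% of the *Stim* level with vehicle and 39.9% to 42.3% with TGF-β1.

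The Orai pores showed a similar split. *Orai3*, the most abundant *Orai* gene per length, was at 32.0, 31.9, 33.8 and 33.2 CPM with vehicle and at 24.9, 24.4, 24.7 and 25.5 CPM with TGF-β1, a fall of 0.40 on the log2 scale (SE 0.04, edgeR adjusted p = 1.34e-10). *Orai2* rose by 0.17 (SE 0.04, edgeR adjusted p = 0.000200). *Orai1*, the pore of the classical store-operated current, was at 14.2 ± 0.495 and 14.5 ± 0.261 CPM (SD, n = 4 each) and was not called, with a 95% interval of the log2 fold change from -0.09 to 0.15. The share of *Orai3* in the family per kb went from between 53.5% and 54.7% to between 45.0% and 46.1%. The summed level of all 5 genes of store-operated entry was 46.9 to 48.9 CPM per kb with vehicle and 42.9 to 44.0 with TGF-β1.

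All 6 release channels were tested, with 2 higher and 2 lower, beside 41.3% of all genes called. *Ryr3* (ENSMUSG00000057378, chromosome 2, 112631355 to 113217096), a ryanodine receptor through which calcium triggers its own release, was at 10.02, 11.2, 10.5 and 10.5 CPM with vehicle. With TGF-β1 it was at 2.53, 1.89, 2.84 and 2.92 CPM, far below every vehicle culture. The log2 fold change was -2.05 (SE 0.10, edgeR adjusted p = 1.67e-21), or 4.14-fold lower. *Ryr1*, the skeletal muscle receptor, was not called (2.21 ± 0.166 and 2.12 ± 0.137 CPM, SD, n = 4 each, 95% interval of the log2 fold change -0.34 to 0.23). *Ryr2*, the heart receptor, had 26 to 30 counts per culture with vehicle and 9 to 25 with TGF-β1. Its groups did not overlap, but it was not called (log2 fold change -0.58, SE 0.31, edgeR adjusted p = 0.135).

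The IP3 receptors changed far less. *Itpr3* was the most abundant release channel, at 408, 414, 404 and 401 CPM with vehicle and at 440, 461, 457 and 455 CPM with TGF-β1, a rise of 0.16 on the log2 scale (SE 0.02, edgeR adjusted p = 1.36e-07). *Itpr1* (ENSMUSG00000030102, chromosome 6, 108213096 to 108551109), the main IP3 receptor of smooth muscle and neurons, was at 30.3, 30.0, 28.6 and 31.0 CPM with vehicle and at 33.5, 37.0, 37.5 and 37.7 CPM with TGF-β1. It rose by 0.28 (SE 0.04, edgeR adjusted p = 5.20e-07), with TGF-β1 replicate 5 nearest to the vehicle cultures. *Itpr2* fell by 0.15 (SE 0.03, edgeR adjusted p = 0.000146). Ryanodine receptors summed to 0.663 to 0.706 CPM per kb with vehicle and to 0.197 to 0.274 with TGF-β1, whereas IP3 receptors summed to 50.9 to 52.7 and to 55.0 to 57.5, so IP3 receptor transcripts were by far the larger class in both groups.

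The group for store refill holds 6 genes, 1 of which (*Pln*) encodes an inhibitor of refill. All were tested and 2 were higher, beside 41.3% of all genes called in either direction. *Atp2a2*, the widely expressed SERCA pump, was at 284, 274, 286 and 281 CPM with vehicle and at 320, 326, 325 and 319 CPM with TGF-β1. The groups did not overlap, and the rise was 0.20 on the log2 scale (SE 0.02, edgeR adjusted p = 8.05e-10). *Atp2a2* made up at least 99.1% of the SERCA level per kb in every culture. *Atp2c1*, which pumps calcium and manganese into the Golgi, went from 81.2 ± 1.503 to 95.8 ± 1.61 CPM (SD, n = 4 each), a rise of 0.24 (SE 0.03, edgeR adjusted p = 1.22e-09). Exons of *Aste1*, on the other strand, overlap 18.9% of its exon length, and *Aste1* was at 10.4 and 11.9 CPM. *Pln*, the inhibitor of SERCA, had 20 to 36 counts per culture and was not called (95% interval of the log2 fold change -0.67 to 0.44). Other genes, on the other strand, overlap 64.7% of its exon length. The strand setting of the counting is not given, so even these counts are uncertain. *Atp2a1*, *Atp2a3* and *Atp2c2*, at 1.07 CPM or less in either group, were not called.

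All 7 extrusion genes were tested, with 1 higher and 2 lower, beside 41.3% of all genes called. *Slc8a3* (ENSMUSG00000079055, chromosome 12, 81197915 to 81333180), a sodium-calcium exchanger known from skeletal muscle and brain, was at 7.40, 7.22, 7.18 and 7.43 CPM with vehicle and at 3.73, 3.75, 3.25 and 3.81 CPM with TGF-β1. The vehicle cultures were nearly alike and all well above the TGF-β1 cultures (log2 fold change -1.01, SE 0.09, edgeR adjusted p = 2.08e-12). The related *Slc8a1*, the main exchanger of heart, was not called (1.99 ± 0.123 and 1.72 ± 0.228 CPM, SD, n = 4 each, 95% interval of the log2 fold change -0.52 to 0.10), nor was *Slc8a2*, below 1 CPM. *Atp2b1*, the main plasma membrane pump here, was at 287, 294, 293 and 299 CPM with vehicle and at 246, 250, 249 and 246 CPM with TGF-β1, a fall of 0.24 (SE 0.02, edgeR adjusted p = 3.11e-12). *Atp2b4*, the next in abundance, had a log2 fold change of 0.13 (SE 0.05, edgeR adjusted p = 0.0323). The *Atp2b4* call was lost without TGF-β1 replicate 5 (adjusted p = 0.0602), TGF-β1 replicate 6 (0.166), vehicle replicate 2 (0.0794) or vehicle replicate 4 (0.0582), which leaves no higher extrusion gene in those fits. *Atp2b2* and *Atp2b3*, pumps best known from neurons, were below 1 CPM and not called. Summed per kb, extrusion genes were at 22.3 to 23.1 CPM with vehicle and at 19.0 to 19.5 with TGF-β1. The refill group, with *Pln* included, was at 54.1 to 56.0 and at 63.0 to 64.3. Each sum rests mostly on its most abundant pump.

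**Figure D4:**
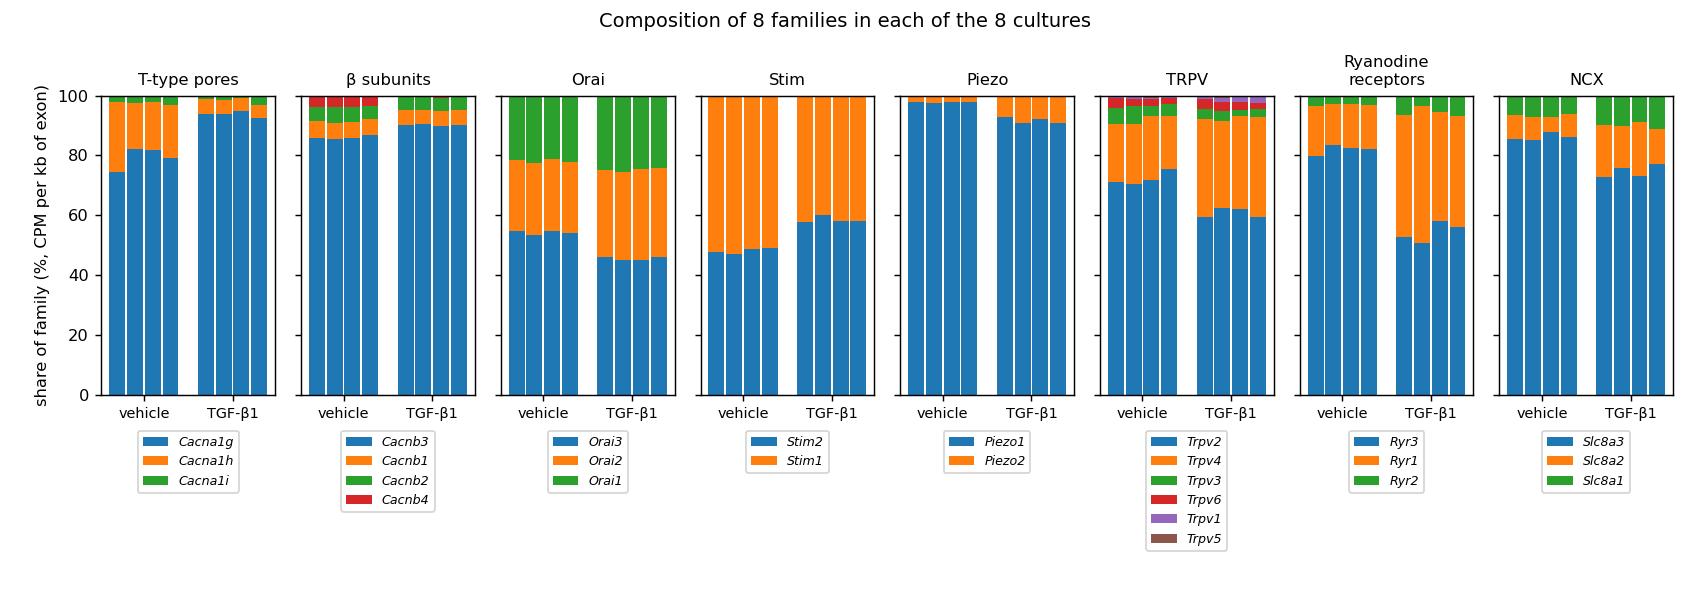
Share of each gene in its family's level (y axis, percent of CPM per kb of exon) in each of the 8 cultures (bars, 4 vehicle on the left and 4 TGF-β1 on the right) for 8 families. *Cacna1g*, *Stim2* and *Piezo2* take larger shares and *Cacnb4*, *Orai3*, *Trpv2*, *Ryr3* and *Slc8a3* smaller shares in all TGF-β1 cultures than in any vehicle culture.

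The families differed in how far their makeup shifted. Per kb of exon, *Cacna1g* held 74.4% to 82.0% of the T-type level with vehicle and 92.5% to 94.7% with TGF-β1, while the T-type sum went from 1.55 to 1.75 CPM per kb to 2.45 to 2.84. Among all pores *Cacna1c* still held most, at 74.3% to 75.8% with vehicle and 68.6% to 71.3% with TGF-β1. *Ryr3* held 79.7% to 83.5% of the ryanodine receptor level with vehicle and 50.6% to 58.2% with TGF-β1, with *Ryr1* taking most of the rest. *Slc8a3* held 85.1% to 87.9% of the exchanger level with vehicle and 72.8% to 77.1% with TGF-β1. None of these ranges overlapped between the groups, and the shares were not tested.

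Promoter sequence is shown for the 2 largest rises and the 2 largest falls among members whose call held under every alternative tried and whose RefSeq start site (GRCm38.p6) coincides with the annotated start of the gene. The stretches are the 250 bases before the start, 5′ to 3′ on the gene's strand, in lower case. Capitals mark matches on either strand to the letters CAGAC (the SMAD element), TGANTCA (an AP-1 element) or GGAATG (a TEAD element), which do not overlap here. *Cacna2d1* and *Piezo1*, which rose, lie at chr5:15934441-15934690 (plus strand) and chr8:122551330-122551579 (minus strand). *Slc8a3* and *Trpv2*, which fell, lie at chr12:81333181-81333430 (minus strand) and chr11:62574236-62574485 (plus strand). *Trpv2* has 3 RefSeq start sites, and only the stretch before the one at the annotated start is shown.
Cacna2d1: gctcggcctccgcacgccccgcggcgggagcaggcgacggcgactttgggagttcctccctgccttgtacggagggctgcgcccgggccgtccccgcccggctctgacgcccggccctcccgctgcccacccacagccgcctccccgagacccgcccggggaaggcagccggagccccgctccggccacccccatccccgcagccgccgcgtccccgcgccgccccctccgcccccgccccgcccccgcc
Piezo1: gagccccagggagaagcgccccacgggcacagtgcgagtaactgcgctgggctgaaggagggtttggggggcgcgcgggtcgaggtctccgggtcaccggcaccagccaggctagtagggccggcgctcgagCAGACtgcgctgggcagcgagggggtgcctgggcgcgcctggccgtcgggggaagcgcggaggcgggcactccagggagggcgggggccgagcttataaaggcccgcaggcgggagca
Slc8a3: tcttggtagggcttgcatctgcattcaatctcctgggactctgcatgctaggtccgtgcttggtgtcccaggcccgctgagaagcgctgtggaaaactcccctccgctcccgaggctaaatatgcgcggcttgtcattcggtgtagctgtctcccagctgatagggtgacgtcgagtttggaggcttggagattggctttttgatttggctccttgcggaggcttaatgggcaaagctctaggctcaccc
Trpv2: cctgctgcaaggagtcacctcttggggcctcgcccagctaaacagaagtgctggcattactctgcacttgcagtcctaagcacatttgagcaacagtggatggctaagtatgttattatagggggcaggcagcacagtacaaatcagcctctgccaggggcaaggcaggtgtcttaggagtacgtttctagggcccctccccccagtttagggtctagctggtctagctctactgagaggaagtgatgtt

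The stretches differ in base composition. That of *Cacna2d1* is 82.4% G or C with 36 CpG dinucleotides and that of *Piezo1* 74.0% with 26, whereas *Slc8a3* has 56.0% with 11 and *Trpv2* 53.2% with 2, against medians of 52.4% and 6 over the 32851 stretches of the table. Of the motifs, 1 match to CAGAC was found, in *Piezo1*. CAGAC occurs in 42.2% of all stretches of this length, TGANTCA in 6.75% and GGAATG in 12.6%, and in 46.1%, 2.63% and 13.2% of the 76 stretches of the 59 members that the table holds. *Piezo2*, *Cacna1g*, *Ryr3* and *Cacna1h* have no entry in the table.

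Genes that act around these channels and pumps moved in both directions too. Of 24 tested accessory proteins of the stores, 8 were higher and 6 lower, beside 41.3% of all genes called. *Jph2*, a junctophilin that ties the reticulum to the plasma membrane, had the largest rise, from 0.401 ± 0.184 to 1.21 ± 0.233 CPM (SD, n = 4 each, log2 fold change 1.60, edgeR adjusted p = 2.45e-06). *Mrvi1*, which links IP3 receptors to cGMP-dependent kinase, fell from 15.6 ± 0.551 to 4.22 ± 0.428 CPM (SD, n = 4 each). Its relative *Lrmp*, at 13 counts or fewer, fell by 1.46 on the log2 scale.

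Of 15 tested genes of mitochondrial calcium handling, 5 were higher and 2 lower, beside 41.3% of all genes called in either direction. Without TGF-β1 replicate 6, 3 were higher. *Mcu*, the pore of the mitochondrial uniporter, fell by 0.39 on the log2 scale (SE 0.03, edgeR adjusted p = 4.34e-13). *Mcub*, the inhibitory subunit of the same channel, rose by 0.45 (SE 0.06, edgeR adjusted p = 9.02e-09).

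Among 24 tested genes that decode calcium, 7 were higher and 7 lower, beside 41.3% of all genes called in either direction. *Camk1d*, a calmodulin-dependent kinase, fell by 0.65 on the log2 scale, *Mylk*, the myosin light chain kinase, fell by 0.50, and *Nfatc4*, a transcription factor activated by calcineurin, rose by 0.51. Of 18 tested phospholipase C and Gq family genes, 3 were higher and 4 lower, beside the same 41.3%. The largest changes were in *Plcl1*, a phospholipase C relative without catalytic activity, which fell by 0.93, *Gna15*, which rose by 0.52, and *Plcb4*, which fell by 0.45.

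A further list, outside the rule, held other channels and exchangers linked to calcium, not all of them calcium-permeable. Of its 24 tested genes, 10 were lower and 2 higher (8 and 2 with DESeq2), beside 20.3% and 20.9% of all genes tested. The median log2 fold change of the list was -0.17, against -0.01 over all genes tested, and the difference from other genes was not tested. *Slc24a4*, a potassium-dependent sodium-calcium exchanger, went from 1.21 ± 0.188 to 0.282 ± 0.117 CPM (SD, n = 4 each, log2 fold change -2.09, edgeR adjusted p = 1.78e-08). *Mcoln2*, a lysosomal TRP channel, fell by 1.22 and *Nalcn*, the sodium leak channel, by 0.92 on the log2 scale. Of 21 tested calcium-binding proteins, 7 were higher and 9 lower, beside 20.9% and 20.3% of all genes tested. Calls went with level, and 73.0% of all genes at 100 CPM or more were called. The largest called changes in this list were in *S100b* (log2 fold change -1.55), *Rcn3* (0.46) and *Anxa6* (-0.41).

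Depth was even across the cultures, with 45255235 to 47651397 counts per vehicle culture and 45988208 to 46827358 per TGF-β1 culture (two-sided p = 0.857 in an exact permutation test). The pericyte label was checked against 14 markers, of which 11 were tested, 5 were higher and 3 lower, beside 41.3% of all genes called. *Pdgfrb* (202 and 291 CPM), *Cspg4* (82.9 and 169 CPM) and *Cd248* (157 and 180 CPM) were abundant and rose. *Mcam* (5.25 and 10.1 CPM) and *Ndufa4l2* (0.884 and 3.19 CPM, log2 fold change 1.85) also rose. *Notch3* (88.5 and 85.9 CPM), *Des* (0.685 and 0.623 CPM) and *Higd1b* (0.278 and 0.276 CPM) were not called. *Anpep* fell from 40.5 to 30.1 CPM, *Rgs5* from 8.62 to 2.13 CPM and *Atp13a5* from 0.723 to 0.299 CPM (log2 fold change -1.27). *Kcnj8*, *Abcc9* and *Vtn*, which mark brain pericytes in tissue, were at or below 0.114 CPM in either group. The sum of the list was 580 to 599 CPM with vehicle and 759 to 788 CPM with TGF-β1. The smooth muscle list of 8 genes, which includes *Pln* (7 tested, 1 higher and 2 lower, beside the same 41.3%), summed to 842 to 917 and 785 to 819 CPM. *Acta2* was its most abundant gene and was not called (731 and 715 CPM), whereas *Smtn* fell from 125 to 61.6 CPM and *Lmod1* from 26.0 to 16.5 CPM. *Cnn1* rose from 1.90 to 2.44 CPM (edgeR adjusted p = 0.0486). *Tagln* (1.47 and 1.84 CPM) and *Myh11* (1.10 and 0.790 CPM) were not called.

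Because *Cacnb4* is best known from the brain, *Piezo2* from sensory neurons and *Slc8a3* from skeletal muscle and brain, markers of other cells were set beside them. The counts of called markers stand beside 41.3% of all genes called in either direction. Neuron markers (6 of 9 tested, 1 higher and 2 lower) summed to 15.6 to 18.0 CPM with vehicle and 16.8 to 20.5 CPM with TGF-β1, with *Snap25* at 12 counts or fewer and *Nefl* at 4 or fewer per culture. Within that list *Tubb3* rose from 2.11 to 7.91 CPM (log2 fold change 1.90), *Map2* fell from 10.8 to 6.92 CPM and *Gad1* fell by 1.24 on the log2 scale. Oligodendrocyte lineage markers (5 of 8 tested, 1 higher and 1 lower) summed to 7.04 to 9.43 and 9.09 to 9.45 CPM, with *Mag* and *Olig2* at 2 counts or fewer. *Mbp* rose from 1.86 to 2.62 CPM and *Sox10* fell from 0.451 to 0.212 CPM. Astrocyte markers (6 of 7 tested, 2 higher and 2 lower) summed to 248 to 260 and 224 to 236 CPM. Most of this was *Gja1* (195 and 190 CPM, not called), with *Gfap* below 1 CPM and *Aqp4* at 6 counts or fewer. In that list *Slc1a2* fell from 38.5 to 16.3 CPM and *S100b* from 4.80 to 1.64 CPM. *Slc1a3* rose from 9.74 to 15.2 CPM and *Aldh1l1* from 5.16 to 8.79 CPM. Microglia and macrophage markers (8 of 8 tested, 1 higher) summed to 109 to 114 and 109 to 111 CPM, nearly all of it *Tmem119*. Endothelial markers (6 of 10 tested, 2 higher and 1 lower) summed to 473 to 486 and 475 to 501 CPM, mostly *Cdh5*, which was not called. *Pecam1* was at 1.11 CPM in each group and *Cldn5* at 10 counts or fewer per culture. *Vwf* rose from 1.58 to 3.81 CPM (log2 fold change 1.27). *Flt1* also rose (0.28), and *Tek* fell (-0.45). Muscle markers (2 of 10 tested, 1 higher) summed to 17.5 to 20.4 and 18.4 to 19.9 CPM, mostly *Ttn*, which was not called. *Tnnt2* rose from 0.586 to 1.79 CPM (log2 fold change 1.61). Leptomeningeal and fibroblast markers (8 of 11 tested, 3 higher and 4 lower) summed to 4823 to 5047 and 6784 to 7073 CPM, mostly collagens, which rose. In the same list *Ptgds* fell from 31.2 to 3.30 CPM (log2 fold change -3.24) and *Foxd1* from 129 to 71.5 CPM (-0.85). The part of these cell types in the changes above was not tested.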

How the data were processed

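RNA-seq libraries from 4 vehicle and 4 TGF-β1 cultures were analysed, grouped by their titles. Alignment by the authors was to mm10 with STAR 2.7.5c (2 passes), followed by removal of PCR duplicates (samtools 1.15). They deposited raw counts per Ensembl gene from featureCounts 2.0.3. The library kit is stranded, but the strand setting of the counting and the annotation release are not given in the sources used here. Symbols, biotypes, exon lengths and positions came from GENCODE M21 (GRCm38), which held 54495 of the 54532 identifiers.

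All genes were fitted with edgeR 4.0.16 in R 4.3.3 (filterByExpr, TMM, robust quasi-likelihood test, two-sided), and p-values were adjusted by Benjamini-Hochberg across all 22544 genes that passed the filter. A gene was called at an adjusted p under 0.05. The standard error is the log2 fold change divided by the square root of F, and 95% intervals use the test's degrees of freedom. DESeq2 1.42.0 was an alternative. The code was tested on simulated counts. The depth of 45255235 to 47651397 counts puts 3 counts at 0.0631 to 0.0658 CPM. Counts from 1 to 20 were even numbers in 68.5% to 70.2% of cases. Floors cover counting error only, whereas the intervals include the spread between cultures. Pairs of cultures within a group differed by a chi-square of 2.25 to 3.93 per degree of freedom. With counts halved, in case a fragment gave more than 1 count, the range was 1.14 to 2.10. Each culture was counted as 1 replicate. How much of this spread lies between isolates was not tested, because the labels name no isolate.

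The members, gene lists and tests were chosen with earlier results of these data known. Values per culture are given for the 6 largest called rises and 6 largest called falls with a mean of at least 0.5 CPM and for the most abundant member per length of each role. Other members are named with a fold change where called or at 1 CPM or more, and other lists by their 3 largest called changes, except for items that are not reported here. *Stim1* by culture, *Pln*, *Ryr2* and the overlapping and marker genes were chosen after their values were seen.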

Additional observations from a re-analysis of the deposited data

Results flagged for a closer look

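Among 88 groups of 4 cultures (44 members in 2 groups), 6 had a single culture well apart from the rest (4.4 would be flagged at a rate of 1 in 20). *Cacna1h* was at 4.01 CPM in vehicle replicate 1, with 2.69 in the nearest vehicle culture. *Trpm4* was at 23.1 CPM in vehicle replicate 3, with 25.3 in the nearest. *Atp2c1* was at 83.4 CPM in vehicle replicate 4, with 80.7 in the nearest. *Itpr1* was at 33.5 CPM in TGF-β1 replicate 5, with 37.0 in the nearest. *Orai1* was at 14.9 CPM in TGF-β1 replicate 6, with 14.4 in the nearest. *Slc8a3* was at 3.25 CPM in TGF-β1 replicate 7, with 3.73 in the nearest. The 6 values lie in 6 different cultures. The calls of *Cacna1h*, *Trpm4*, *Atp2c1*, *Itpr1* and *Slc8a3* were kept whichever culture was left out.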

How the results depend on the processing

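Of the 29 called members, 24 kept direction and call under all 14 alternatives (DESeq2, DESeq2 size factors, library totals, 2 other filters, counts halved and rounded up, and each culture left out), and none reversed. The other 5 are *Cacna1c*, *Cacng7*, *Cacng8*, *Trpm3* and *Atp2b4*. *Trpm3* (adjusted p = 0.0620) and *Atp2b4* (0.0615) were also lost when all genes with at least 1 count in any culture were tested, which leaves 0 higher extrusion genes. Across the fits that leave out a culture, the genes called ranged from 8559 to 9038, members higher from 13 to 15 and lower from 12 to 14. Over the same fits the counts of lower pores ranged from 1 to 2, of lower auxiliary subunits from 1 to 2, of higher extrusion genes from 0 to 1 and of higher mitochondrial genes from 3 to 5, and the median log2 fold change of the members from -0.0466 to 0.0213. Members near 0 that were not called changed sign. *Cacnb2* was at -8.48e-05 with at least 1 count in any culture, at -0.00556 with library totals and between -0.0324 and 0.0411 with a culture left out. With a culture left out, *Cacna1a* ranged from -0.0535 to 0.0164, *Ryr1* from -0.0865 to 0.00408, *Pln* from -0.286 to 0.0179 and *Cacna2d3* from -0.0386 to 0.144. Family shares kept their direction without division by length. No paired analysis was possible because, although the methods describe shared isolates, the labels number the vehicle cultures 1 to 4 and the TGF-β1 cultures 5 to 8. Of the 18 tested members under 1 CPM, 1 was called, and whether depth limits such calls was not tested.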
